A study of Mus musculus with 4 samples.

Results

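The genes described here were the adult globins, which make the protein chains of haemoglobin, and a pair of other red cell genes, in the back skin of mice lacking the LIM domain-binding protein gene Ldb2 and of wild type mice. The 8 genes were Hba-a1 and Hba-a2 (alpha globin), Hbb-b1, Hbb-b2, Hbb-bs and Hbb-bt (beta globin), Alas2 (the erythroid enzyme that starts haem synthesis) and Slc4a1 (the anion exchanger band 3 of the red cell membrane). They were found by symbol among 17721 genes, and all 8 were present. They were chosen by their read counts in these same 4 libraries, LDB2-/- against WT, so their own difference between genotypes is given as a description, with no test. The samples were 4 RNA-seq libraries of dispase-treated back skin, described by the submitters as epidermal lysates, from C57BL/6 mice at postnatal day 63. LDB2-/- mice gave 2 libraries and wild type (WT) mice gave 2. The labels do not say how the LDB2-/- allele was made, in which cells it acts, or whether each library came from 1 animal or a pool. A p-value below therefore measures only the spread between these libraries.

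Adult haemoglobin joins alpha chains from a gene cluster on chromosome 11 with beta chains from a cluster on chromosome 7, and each chain holds a haem made by a pathway whose first erythroid step is catalysed by Alas2. Globin messenger RNA is made in nucleated erythroid precursors of the marrow and spleen and persists in reticulocytes, the young red cells that circulate in blood. In erythroid precursors the globin genes are switched on by GATA1, TAL1, KLF1, LMO2 and LDB1, the last of which is the close relative of Ldb2. Epidermis has no blood vessels of its own, whereas the dermis and the hair follicle's papilla do.

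Several globin copies are nearly identical in sequence, so the counts of single copies are uncertain. Between Hba-a1 and Hba-a2 the coding sequences differed at 1 of 429 bases, C381T, and between Hbb-bs and Hbb-bt at 1 of 444, C417T. Hbb-b1 and Hbb-b2 were not compared in sequence. Positions count from 1 at the first base of the start codon, with the base of Hba-a1 or Hbb-bs first. The 60 coding bases that hold each difference are shown, with the differing base in capitals, because they show why copies were summed per chain. The first pair lies at chr11:32284313-32284372 and chr11:32297130-32297189 on the plus strand, and the second at chr7:103826665-103826724 and chr7:103812656-103812715 on the minus strand, all exonic in mouse build GRCm38.
Hba-a1: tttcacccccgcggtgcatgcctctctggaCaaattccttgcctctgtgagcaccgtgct
Hba-a2: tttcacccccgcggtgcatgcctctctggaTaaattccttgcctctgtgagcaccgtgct
Hbb-bs: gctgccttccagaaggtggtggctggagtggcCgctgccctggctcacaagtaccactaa
Hbb-bt: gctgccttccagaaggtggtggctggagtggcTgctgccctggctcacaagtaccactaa

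C57BL/6 mice carry the single haplotype of the beta cluster, whose adult genes are Hbb-bs and Hbb-bt, while Hbb-b1 and Hbb-b2 are names of the diffuse haplotype of other strains. The deposited table listed all of these names, and most beta counts stood on Hbb-b1 and Hbb-b2 in every library except WT library 1. Both alpha copies were also listed by the authors with a second genomic placement, as were 109 of the 17721 genes. How counting divided reads between these names was not tested.

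Promoters of the members are shown because the members were higher together, and because erythroid promoters are known for GATA, CACCC and CCAAT boxes. Sequences are from RefSeq on GRCm38.p6, the 120 bases before the transcription start, with matches in capitals. The words searched on both strands were GATAA or GATAG preceded by A or T (a GATA word), the CACCC box, the CCAAT box and TATAAA. Promoters were found for 5 of the 8 members. The windows are chr11:32296372-32296491 (Hba-a2, plus strand), chr7:103827929-103828048 (Hbb-bs, minus), chr7:103813924-103814043 (Hbb-bt, minus) and chrX:150547297-150547416 (Alas2, plus).
Hba-a2: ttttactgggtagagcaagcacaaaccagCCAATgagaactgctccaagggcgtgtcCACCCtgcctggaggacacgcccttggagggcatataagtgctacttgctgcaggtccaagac
Hbb-bs: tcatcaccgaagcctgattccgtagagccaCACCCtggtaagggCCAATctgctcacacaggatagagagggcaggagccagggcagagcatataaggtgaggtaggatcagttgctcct
Hbb-bt: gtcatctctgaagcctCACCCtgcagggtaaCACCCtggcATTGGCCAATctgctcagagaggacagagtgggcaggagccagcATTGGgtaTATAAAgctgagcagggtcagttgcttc
Alas2: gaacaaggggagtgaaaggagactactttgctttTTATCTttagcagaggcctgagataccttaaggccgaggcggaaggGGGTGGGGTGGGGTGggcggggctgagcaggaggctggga

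The Hba-a1 window was identical to that of Hba-a2 over 297 bases once shifted by 3 bases. In the 300-base windows around the start, a CACCC word was present in all 5 members, at 1 to 3 places each, against 57.5% of 32851 windows. A GATA word was present in Hba-a1, Hba-a2, Hbb-bs and Alas2, against 29.8% of windows, and only the Alas2 match, 86 bases before the start on the reverse strand, falls in the stretch printed. CCAAT was present in the 4 globin windows, against 37.4%. TATAAA was present in Hbb-bt, 28 bases before the start, and in Alas2, 209 bases before it on the reverse strand, against 13.6%. In Hbb-bt a forward and a reverse CCAAT match adjoin in the capital run ATTGGCCAAT. A match is a description of letters, not a bound site.

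Alpha globin messenger RNA was far more abundant in LDB2-/- than in WT skin. The summed alpha copies had 3999 and 5257 CPM, read counts scaled to library size with TMM factors, in LDB2-/- libraries 1 and 2, against 85.9 and 93.6 CPM in WT libraries 1 and 2. The genotypes did not overlap, and the lower LDB2-/- library stood 42.7-fold above the higher WT library. The means were 4628 ± 889.9 CPM in LDB2-/- and 89.7 ± 5.49 CPM in WT (SD, n = 2 each), a log2 fold change of 5.69. In bulk skin, fewer cells of a type and less RNA per cell cannot be told apart.

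Nearly all alpha counts stood on Hba-a2. It had 195126 and 303291 counts in LDB2-/- libraries, against 5410 and 5880 in WT libraries. In FPKM, which divides fragments by transcript length and library size, Hba-a2 ranked 4 among 15671 and 4 among 15468 genes with counts in LDB2-/- libraries, against 499 among 16416 and 359 among 16599 in WT libraries. Hba-a1 had 3374 and 9504 counts in LDB2-/- libraries, against 957 and 171 in WT libraries. Its share of the alpha counts was 1.70% (95% Wilson interval 1.64 to 1.76) and 3.04% (2.98 to 3.10) in LDB2-/- libraries, against 15.0% (14.2 to 15.9) and 2.83% (2.44 to 3.27) in WT libraries. These shares differ within a genotype by more than counting error. Intervals cover counting error only.

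Beta globin followed the same pattern when its copies were summed. The sum was 4855 and 5897 CPM in LDB2-/- libraries, against 114.1 and 144.6 CPM in WT libraries. Means were 5376 ± 736.8 CPM in LDB2-/- and 129.4 ± 21.5 CPM in WT (SD, n = 2 each), a log2 fold change of 5.38, again without overlap. All globin counts together made up 0.812% and 0.970% of the LDB2-/- libraries, against 0.0220% and 0.0268% of the WT libraries.

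Hbb-b2 was the beta row with the steadiest values. It had 68216 and 98310 counts in LDB2-/- libraries, against 2366 and 2520 in WT libraries. Its share of the beta counts was 28.3% (28.1 to 28.5) and 28.0% (27.9 to 28.2) in LDB2-/- libraries, against 28.0% (27.0 to 28.9) and 27.0% (26.1 to 27.9) in WT libraries. The division between Hbb-b2 and the other rows thus kept to a narrow range while the total differed about 41.6-fold.

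Hbb-b1 and Hbb-bs traded counts from library to library. Hbb-b1 had 170586 and 229547 counts in LDB2-/- libraries, against 6 and 6824 in WT libraries. Hbb-bs had 2123 and 22921 counts in LDB2-/- libraries, against 6091 and 0 in WT libraries, so that WT library 1 lay between the LDB2-/- libraries once scaled. In WT library 1 Hbb-bs held 72.0% of the beta counts and Hbb-b1 0.0709%. In WT library 2 Hbb-b1 held 73.0% and Hbb-bs 0 of 9344 counts, which allows a share of up to 0.0321%. Added together, these rows had 172709 and 252468 counts in LDB2-/- libraries, against 6097 and 6824 in WT libraries, and their joint share was 71.7% and 72.0% in LDB2-/-, against 72.0% and 73.0% in WT. A fold change of either row alone depends on this division. The authors' deposited table gives a signed fold change of 68.9 for Hbb-b1 and 5.18 for Hbb-bs, against 42.5 for Hbb-b2.

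Hbb-bt was barely counted. It had 86 and 89 counts in LDB2-/- libraries, against 1 and 0 in WT libraries. The ratio of pooled counts, scaled for library size, was 222.5, with an exact interval of 39.4 to 8839 that covers counting error only and is no test of the genotypes. It passed the filter on low values only through the LDB2-/- libraries.

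**Figure D1:**
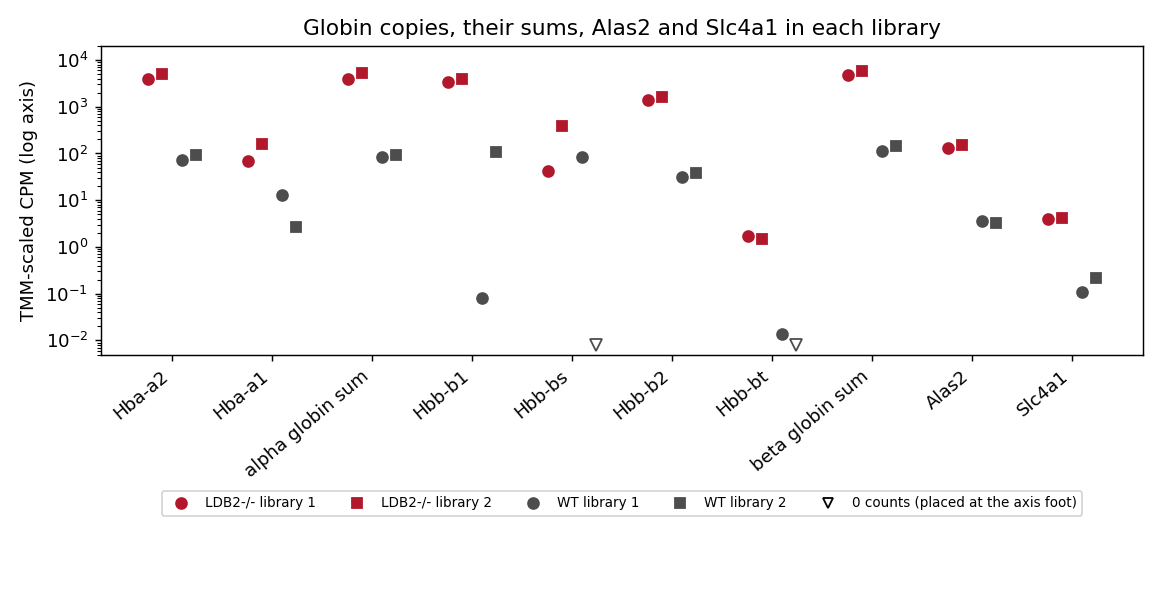
TMM-scaled CPM on a log axis for each globin copy, the sums per chain, Alas2 and Slc4a1, with 1 point per library and LDB2-/- left of WT. Both LDB2-/- points lie above both WT points for every item except Hbb-bs, and open triangles mark 0 counts.

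**Figure D2:**
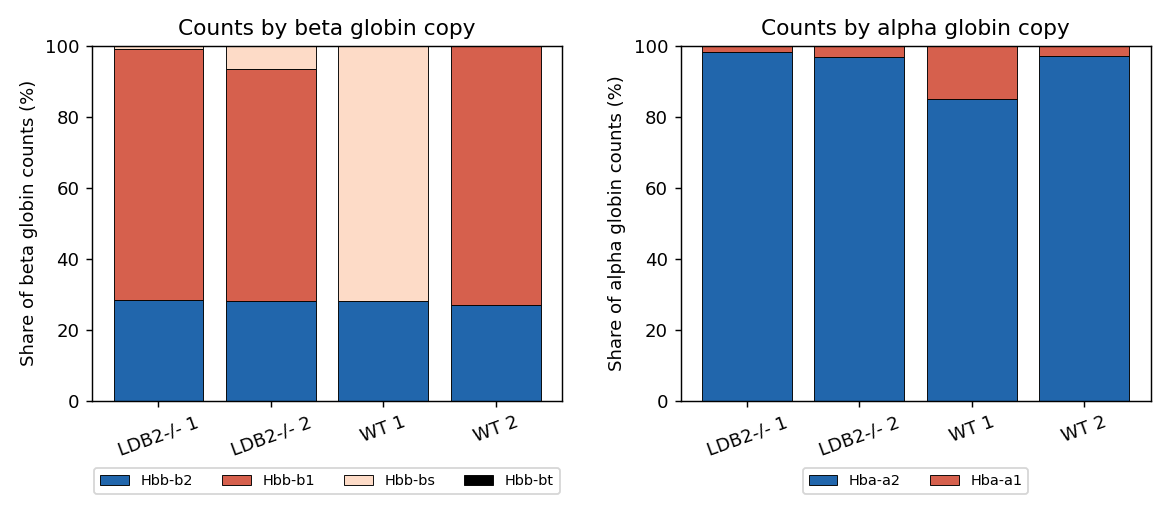
Percent of beta globin counts (left panel) and alpha globin counts (right panel) on each copy, with 1 bar per library. The Hbb-b2 share stays between 27.0% and 28.3% in all 4 libraries, while Hbb-bs holds 72.0% in WT library 1 and less than 7% elsewhere.

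Alas2, which joins glycine to succinyl-CoA in erythroid cells, was also higher in LDB2-/- skin. It had 131.0 and 152.0 CPM in LDB2-/- libraries, against 3.63 and 3.25 CPM in WT libraries. Means were 141.5 ± 14.8 CPM in LDB2-/- and 3.44 ± 0.27 CPM in WT (SD, n = 2 each), a log2 fold change of 5.36, with no overlap. Alas2 lies on chromosome X (150547417 to 150570622, GRCm38) and has no near-identical copy among the members. Its counts, 6504 and 9045 in LDB2-/- libraries against 269 and 210 in WT libraries, therefore do not depend on how globin reads were divided.

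Alas1, the form of the same enzyme that other tissues use, had 61.7 and 56.3 CPM in LDB2-/- libraries, against 49.2 and 54.0 CPM in WT libraries. Its log2 fold change was 0.19 with TMM (SE 0.12, edgeR adjusted p = 0.204) and -0.12 with library totals alone. Per length, in FPKM, Alas2 stood at 2.91 and 3.70 times the level of Alas1 in LDB2-/- libraries, against 0.103 and 0.0825 times in WT libraries. The order of these enzymes was thus opposite in the genotypes, in both libraries of each.

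Slc4a1 was a low-count member. It had 195 and 249 counts in LDB2-/- libraries, against 8 and 14 in WT libraries, or 3.93 and 4.19 CPM against 0.108 and 0.217 CPM. The log2 fold change was 4.64, with no overlap, and 5.23 without WT library 2. At 0.779 and 0.782 FPKM in LDB2-/- libraries, against 0.0257 and 0.0527 FPKM in WT libraries, it stayed under the filter of 1 FPKM in 2 libraries and did not enter the fit. Slc4a1 lies on chromosome 11 (102348820 to 102365281, GRCm38).

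Of the 8 members, 7 had both LDB2-/- libraries above both WT libraries. Over all 12400 genes tested this share was 40.8%, and the rule that chose the members used this contrast, so nothing is read from the count. In all, 7 members passed the filter, 4 of them in both WT libraries too (Hba-a1, Hba-a2, Hbb-b2 and Alas2).

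The order of levels per length was the same in every library, with beta globin first, then alpha globin, Alas2 and Slc4a1. In FPKM, alpha globin stood at 0.923 and 1.00 times beta globin in LDB2-/- libraries, against 0.851 and 0.726 times in WT libraries. In LDB2-/- libraries 1 and 2 the FPKM sums were 6421 and 7969 for alpha, against 6957 and 7971 for beta in the same libraries. The chains were thus nearly equal in LDB2-/- library 2, where their order rests on a very small difference. In WT libraries the sums were 166 and 184 for alpha and 195 and 254 for beta, without overlap. Both exceeded Alas2 in each library, which had 60.0 and 65.8 FPKM in LDB2-/- and 2.01 and 1.83 FPKM in WT. Alpha globin stood at 107.0 and 121.1 times Alas2 in LDB2-/- libraries, against 82.3 and 100.9 times in WT libraries. Slc4a1 was the lowest, with Alas2 at 77.0 and 84.1 times its level in LDB2-/- libraries, against 78.2 and 34.7 times in WT libraries. These ratios differed far less between genotypes than the levels did.

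Tested genes were ranked by pattern over the 4 libraries, leaving out the members, Gm, Rik and LOC gene models, and symbols beginning with Mir or Snor. The genes most like the alpha globin sum, the beta globin sum, Alas2 and Slc4a1 were found from the distance between centred log2(CPM + 0.5) profiles. For alpha globin they were Gjb2 (distance 0.224), Krtap10-10 (0.237), Msx2 (0.301), Cldn14 (0.311) and Dusp2 (0.340), and beta globin lay at 0.341. For beta globin they were Gja3 (0.150), Sct (0.174), Efhd1 (0.193), Krtap10-10 (0.205) and Cybrd1 (0.213). For Alas2 they were Cybrd1 (0.211), Krt75 (0.239), Nkd2 (0.255), Krtap3-2 (0.284) and Krtap9-1 (0.292), while beta globin lay at 0.398 and alpha globin at 0.547. Gjb2, a connexin, had 1626 and 1721 CPM in LDB2-/- libraries, against 30.7 and 34.6 CPM in WT libraries. Krt75, a hair follicle keratin, had 761 and 757 CPM in LDB2-/- libraries, against 18.7 and 17.6 CPM in WT libraries. For Slc4a1 they were Ttyh3 (0.059), Sprr1b (0.086), Saa3 (0.088), Map3k6 (0.088) and Lap3 (0.103), a list that the added 0.5 CPM shapes, since it shrinks the difference of so low a gene. The same 0.5 CPM shapes the other lists where genes had less than that in WT libraries, as Krtap9-1, Krtap10-10, Cldn14 and Sct did. Their edgeR log2 fold changes were 8.30, 7.48, 7.56 and 7.28, larger than those of the members they stand near. With 4 libraries the measure mostly reflects the size of the genotype difference after this shrinkage.

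Few other haem synthesis genes were higher along with Alas2. Of 20 haem synthesis genes tested, 3 were higher and 4 lower in LDB2-/- libraries, with a median log2 fold change of -0.18, against -0.01 over all genes tested. Over all 12400 genes, 57.2% passed an adjusted p of 0.05, with 28.4% (3521 genes) higher in LDB2-/- and 28.8% (3576 genes) lower. With library totals alone the split was 2248 higher and 5096 lower, and the median of all genes moved to -0.33. The list, like the others below, was drawn up with earlier results of these data known.

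Slc25a37, mitoferrin-1, which brings iron into the mitochondria of erythroid cells, was the haem list gene that moved most. It had 285 and 249 CPM in LDB2-/- libraries, against 18.5 and 22.6 CPM in WT libraries, and rose by 3.70 on the log2 scale (SE 0.16, edgeR adjusted p = 8.69e-05). Its relative Slc25a28, mitoferrin-2, had 23.2 and 29.8 CPM in LDB2-/- libraries, against 37.5 and 35.2 CPM in WT libraries (log2 -0.46, edgeR adjusted p = 0.0551). Per length, in FPKM, Slc25a37 stood at 4.54 and 3.08 times Slc25a28 in LDB2-/- libraries, against 0.182 and 0.237 times in WT libraries. The other higher genes were the iron-sulfur cluster genes Glrx5 (log2 0.52) and Iscu (0.54). Without LDB2-/- library 2 the changes of Glrx5 and Iscu were 0.44 and 0.35, and neither was called. Without WT library 2 Iscu was 0.38 and also not called.

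Among the enzymes between Alas2 and haem, Urod, Cpox and Ppox were lower in LDB2-/- skin. Cpox, coproporphyrinogen oxidase, had 32.5 and 27.4 CPM in LDB2-/- libraries, against 67.7 and 79.2 CPM in WT libraries, and fell by 1.30 on the log2 scale (SE 0.15, edgeR adjusted p = 0.00105). Ppox, which acts on its product, fell by 0.73, and Urod, which acts before Cpox, fell by 0.38. Fam210b, a mitochondrial protein of erythroid haem synthesis, fell by 0.40. The call of Urod was lost without LDB2-/- library 1 (-0.45), LDB2-/- library 2 (-0.31) or WT library 1 (-0.29), and that of Fam210b without LDB2-/- library 1 (-0.33), LDB2-/- library 2 (-0.46) or WT library 2 (-0.36). Not called were Alad (log2 -0.33), Uros (-0.13) and Slc25a38, the mitochondrial glycine carrier (-0.30).

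Fech, which inserts iron into the ring to make haem, had 60.4 and 23.5 CPM in LDB2-/- libraries, against 49.6 and 49.3 CPM in WT libraries. The LDB2-/- libraries lay on either side of the WT libraries. The log2 fold change was -0.24 (SE 0.41, edgeR adjusted p = 0.637), 0.29 without LDB2-/- library 2 and -1.07 without LDB2-/- library 1, where it was called lower. Uros shared this split, with 16.0 and 9.83 CPM in LDB2-/- libraries, against 13.9 and 14.4 CPM in WT libraries.

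Of 12 tested genes of haem breakdown and haemoglobin salvage, 3 were higher and 4 lower, with a median of -0.18, near the shares over all genes tested of 28.4% higher and 28.8% lower. Hmox1 and Hmox2, the oxygenases that open the haem ring, rose by 0.95 and 1.02. Hmox1 had 64.9 and 70.0 CPM in LDB2-/- libraries, against 35.1 and 35.0 CPM in WT libraries (edgeR adjusted p = 0.00118). Hp, haptoglobin, which binds free haemoglobin, rose by 4.49 from a low base, with 133 and 155 counts in LDB2-/- libraries, against 7 and 9 in WT libraries. Bach1, a haem-sensing repressor, fell by 1.65, and the haem-binding Pgrmc1, Hebp2 and Pgrmc2 fell by 1.44, 0.92 and 0.71.

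Of 21 iron genes tested, 8 were higher and 7 lower, with a median of 0.25, against 28.4% higher and 28.8% lower and a median of -0.01 over all genes tested. Those that rose most were Cybrd1, a ferric reductase (5.80), Steap1, a metalloreductase family member (4.81), Slc40a1, the iron exporter ferroportin (3.38), and Slc39a8, a metal importer (3.19). Trf, transferrin, rose by 1.80, Slc39a14, another importer, by 1.44, and Pcbp1, an iron chaperone, by 0.58. The call of Pcbp1 was lost without LDB2-/- library 2 (0.53). Slc40a1 had 310.2 and 288 CPM in LDB2-/- libraries, against 28.9 and 28.5 CPM in WT libraries (SE 0.11, edgeR adjusted p = 7.14e-05). Tfrc, the transferrin receptor through which erythroid precursors take up iron, had 60.1 and 59.3 CPM in LDB2-/- libraries, against 62.5 and 81.6 CPM in WT libraries (log2 -0.27, edgeR adjusted p = 0.173).

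The subunits of ferritin, the iron store, went in opposite directions. Ftl1 had 542 and 687 CPM in LDB2-/- libraries, against 222 and 197 CPM in WT libraries, and rose by 1.55 (SE 0.16, edgeR adjusted p = 0.000883). Fth1 had 313 and 379 CPM in LDB2-/- libraries, against 596 and 534 CPM in WT libraries, and fell by 0.71 (SE 0.15, edgeR adjusted p = 0.00994). The call of Fth1 was lost without LDB2-/- library 1 (-0.57). In FPKM, Ftl1 stood at 1.68 and 1.76 times Fth1 in LDB2-/- libraries, against 0.361 and 0.358 times in WT libraries. Ferritin genes have processed copies in the genome, so their counts are uncertain to that extent. Also lower were Steap4 (-2.49), the iron sensors Aco1 (-1.14) and Ireb2 (-0.67), Heph (-0.97), the ferritin receptor Ncoa4 (-0.94) and the importer Slc11a2 (-0.90). Ireb2 lost its call without LDB2-/- library 2 (-0.53). Heph had 28.2 and 16.8 CPM in LDB2-/- libraries, against 41.8 and 46.2 CPM in WT libraries.

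Aco1 and Ireb2 encode the proteins that bind iron-responsive elements, RNA hairpins whose loop reads CAGUG and which lie in the 5' UTR of Alas2, Fth1, Ftl1 and Slc40a1. The DNA of these sites is shown because they link the translation of Alas2 to iron, and the genes other than Alas2 were chosen after their values were seen. Each 30-base stretch is from GENCODE transcripts on GRCm38, with the bulged C and the loop in capitals. The Alas2 site spans the first splice junction (chrX:150547458-150552150, plus strand). The others are at chr19:9982732-9982761 (Fth1, plus), chr7:45459778-45459807 (Ftl1, minus) and chr1:45925464-45925493 (Slc40a1, minus).
Alas2: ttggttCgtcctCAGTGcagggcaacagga
Fth1: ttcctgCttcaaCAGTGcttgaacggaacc
Ftl1: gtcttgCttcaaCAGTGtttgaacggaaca
Slc40a1: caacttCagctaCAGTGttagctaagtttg

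The spelling C, 5 bases, CAGTG was present in the 5' UTR of 12.8% of 20045 genes, and 1 transcript of Hbb-bs also held it, so the letters alone do not mark a site. Among these 4 genes Alas2, Ftl1 and Slc40a1 were higher and Fth1 was lower in LDB2-/- libraries.

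**Figure D3:**
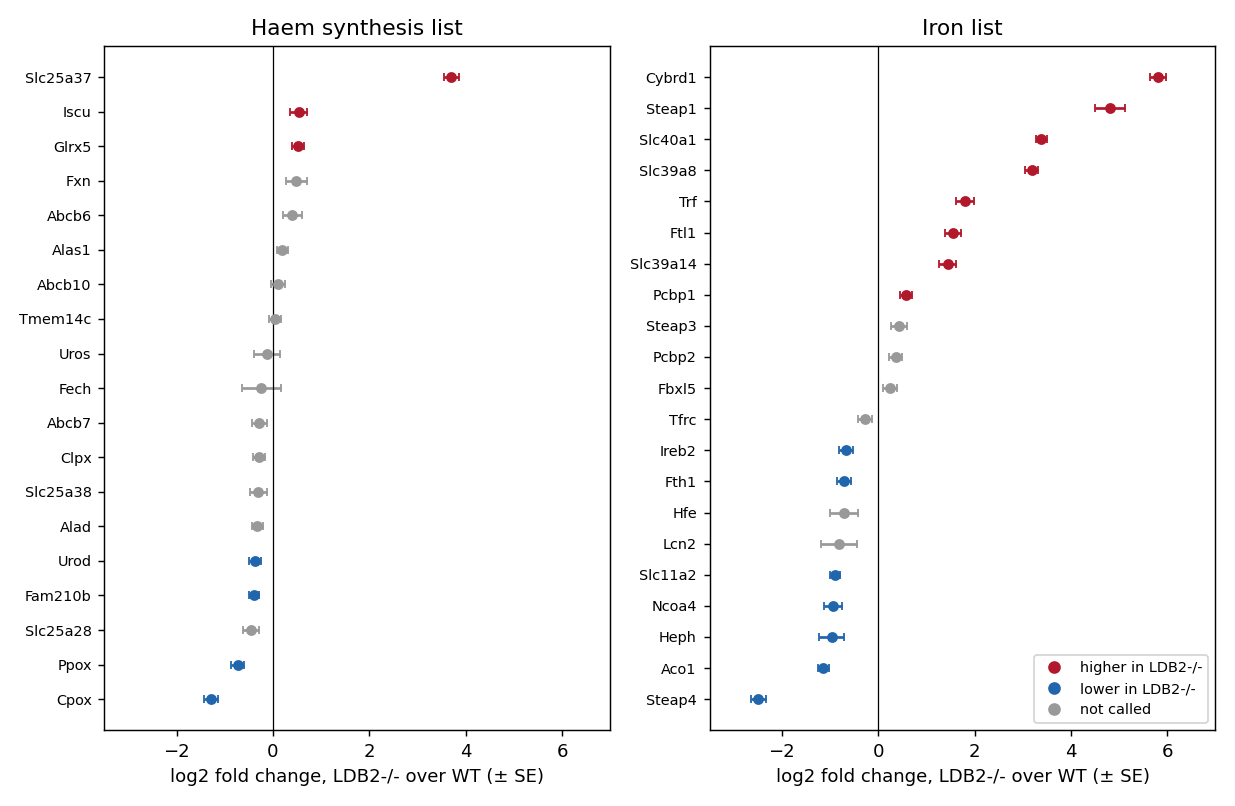
Log2 fold change, LDB2-/- over WT, with its standard error, of tested haem synthesis genes (left panel) and iron genes (right panel) chosen for display. Points are coloured by call at an edgeR adjusted p under 0.05. Slc25a37 at 3.70 stands apart from the other haem synthesis genes shown, which lie between -1.30 and 0.54, while iron genes spread from -2.49 to 5.80.

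Most of the other red cell genes that could be tested were higher in LDB2-/- skin, and several defining ones were too low to test. Of 36 listed, 31 were in the table and 14 were tested, with 9 higher and 2 lower and a median log2 fold change of 1.35. The shares over all genes tested were 28.4% higher and 28.8% lower, with a median of -0.01. Bpgm, which makes the bisphosphoglycerate that loosens oxygen from haemoglobin, rose by 3.73, with 214 and 223 CPM in LDB2-/- libraries, against 15.8 and 17.2 CPM in WT libraries. Car2, a carbonic anhydrase, rose by 2.86, the water channel Aqp1 by 2.65, the conjugating enzyme Ube2l6 by 2.04 and Isg20 by 1.84. Prdx2 rose by 1.53, Epb41 (protein 4.1) by 1.18 and Mkrn1 by 0.82. Cat and Nt5c3 fell by 1.69 and 1.25. Most of the called genes are not restricted to red cells.

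Among the red cell genes that were counted but not tested, 9 of 17 had both LDB2-/- libraries above both WT libraries and 4 had both below. The share with both above was 40.8% over all genes tested, and the share with both below was not computed. These genes did not pass the filter on low values, so neither count has a matching share and nothing is read from them. Trim10 had 49 and 108 counts in LDB2-/- libraries, against 2 and 0 in WT libraries, and Xk had 182 and 283, against 17 and 6. Sptb, beta spectrin, went the other way, with 65 and 115 counts in LDB2-/- libraries, against 242 and 320 in WT libraries. Kel had 0 and 0 counts in LDB2-/- libraries, against 33 and 25 in WT libraries. Rhag, Ahsp, Car1, Trim58 and Pklr were not analysed here.

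Of the factors that switch on globin genes, Gata1, Klf1 and Tal1 had few or no counts in any library. Gata1 had 0 and 7 counts in LDB2-/- libraries, against 0 and 5 in WT libraries. Klf1 had 22 and 0 counts in LDB2-/- libraries, against 0 and 3 in WT libraries, and Tal1 had 0 and 0, against 0 and 6. Epor, the erythropoietin receptor, had 17 and 17 counts in LDB2-/- libraries, against 19 and 16 in WT libraries. Other untested regulators varied, as Gata2 had 37 and 68 counts in LDB2-/- libraries, against 0 and 0 in WT libraries. Nfe2 had 0 and 45, against 42 and 37. Of the 13 regulators tested, edgeR called 0 higher and 4 lower, with 1 higher at an unadjusted p under 0.05 and 3 called higher by DESeq2. The share called lower was near the 28.8% over all genes tested, of which 28.4% were higher. The median was -0.21. The lower ones were Stat5a (-1.73), Stat5b (-1.31), Jak2 (-1.28), which carry the signal of the erythropoietin receptor, and Nfe2l2 (-0.69).

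Ldb1 had 248 and 253 CPM in LDB2-/- libraries, against 236 and 215 CPM in WT libraries. Its log2 fold change was 0.15 with TMM (SE 0.11, edgeR adjusted p = 0.290) and -0.17 with library totals alone. Lmo2 had 4.63 and 4.13 CPM in LDB2-/- libraries, against 3.65 and 3.23 CPM in WT libraries, and was not called. The deleted gene itself, Ldb2, had 0 and 0 counts in LDB2-/- libraries, against 0 and 8 in WT libraries. A count of 0 allows up to 0.0555 and 0.0438 CPM in LDB2-/- libraries 1 and 2. With 1 WT library also at 0, it does not check the labels.

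The theta globins Hbq1a and Hbq1b had 0 and 21, and 6 and 22, counts in LDB2-/- libraries, against 0 in each WT library. Cygb, cytoglobin, the only other globin tested, had 3.71 and 2.87 CPM in LDB2-/- libraries, against 4.52 and 3.28 CPM in WT libraries, and was not called. Hba-x, Hbb-y, Hbb-bh1 and Hbb-bh2, genes of the embryonic clusters, were not analysed here.

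Markers of other cells also differed between the genotypes, where 28.4% of all genes tested were higher and 28.8% lower in LDB2-/-. Of 16 endothelial genes listed, 7 were tested and all 7 were higher, with a median of 3.13, among them Eng (4.12), Plvap (3.13) and Vwf (2.92). Cldn5 had 139 and 165 counts in LDB2-/- libraries, against 0 and 8 in WT libraries, a log2 fold change of 5.52, and 4.47 without WT library 1, or 10.41 without WT library 2, where WT is at 0 and the value depends on the prior count. The whole endothelial list summed to 97.0 and 107.1 CPM in LDB2-/- libraries, against 9.60 and 14.8 CPM in WT libraries, and Kdr was at 0 in both LDB2-/- libraries. All 8 tested skeletal muscle genes were higher, with a median of 5.01, and the 12 listed summed to 67.5 and 58.6 CPM in LDB2-/- libraries, against 5.52 and 4.27 CPM in WT libraries. All 14 inner root sheath and hair matrix genes were higher, with a median of 7.99 and sums of 115538 and 125869 CPM in LDB2-/- libraries, against 207 and 707 CPM in WT libraries. All 11 tested epidermal keratinocyte genes were lower, with a median of -2.33 and sums of 14609 and 14583 CPM in LDB2-/- libraries, against 51649 and 44612 CPM in WT libraries. The part of these differences in the globin result was not tested.

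The platelet, neutrophil and leukocyte lists did not all go the same way between the genotypes. Over all genes tested, 28.4% were higher and 28.8% lower in LDB2-/-. Of 4 platelet genes tested, 4 were higher, and the 9 in the table summed to 32.1 and 151.0 CPM in LDB2-/- libraries, against 10.9 and 18.0 CPM in WT libraries. Gp1bb was the platelet gene with the highest counts, with 970 and 7950 counts in LDB2-/- libraries, against 380 and 786 in WT libraries. Its log2 fold change was 3.15. It was 1.18 and not called without LDB2-/- library 2, 3.96 without LDB2-/- library 1 and 3.90 without WT library 2. Itga2b, at 0.83, lost its call without LDB2-/- library 2 (0.76) or WT library 1 (0.66). Pf4, platelet factor 4, had 58 and 106 counts in LDB2-/- libraries, against 13 and 0 in WT libraries, while Gp9 had 0 and 0, against 0 and 4.

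Of 6 neutrophil genes tested, 3 were higher and 1 lower, against 28.4% higher and 28.8% lower over all genes tested. The 14 listed summed to 77.4 and 83.4 CPM in LDB2-/- libraries, against 85.6 and 60.7 CPM in WT libraries. S100a8 rose by 2.35 and S100a9 by 1.32. The gene called lower fell by 1.48, and the 2 not called were at -0.82 and -0.58. In all, 9 of the 14 listed had the higher mean CPM in LDB2-/- libraries, and the share of all genes with a higher mean was not computed. Csf3r had 152 and 195 counts in LDB2-/- libraries, against 9 and 8 in WT libraries, and Ngp 38 and 22, against 0 and 0. Mpo had 0 and 0 counts in LDB2-/- libraries, against 0 and 3 in WT libraries, and Elane 0 and 0, against 0 and 2. Counts as low as those of Mpo and Elane give no direction. Retnlg had 54 and 108 counts in LDB2-/- libraries, against 0 and 0 in WT libraries. Of 9 leukocyte genes tested, 3 were higher and 5 lower, with sums of 562 and 732 CPM in LDB2-/- libraries, against 889 and 938 CPM in WT libraries. Ptprc, the pan-leukocyte phosphatase CD45, fell by 2.19, and the macrophage gene C1qb rose by 2.81 (3.41 without WT library 1). Other macrophage genes of the list went both ways, at 1.56, 1.47, -0.95 and -0.96, and its T cell genes fell by 1.15 and 1.58. The B cell gene Cd79a had 66 and 88 counts in LDB2-/- libraries, against 6 and 3 in WT libraries. Of the 12 listed leukocyte genes, 6 had the higher mean CPM in LDB2-/- libraries. Without the share of all genes, no direction of the neutrophil or leukocyte list is read from such counts. Whether these counts came from blood or from cells of the skin was not tested.

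**Figure D4:**
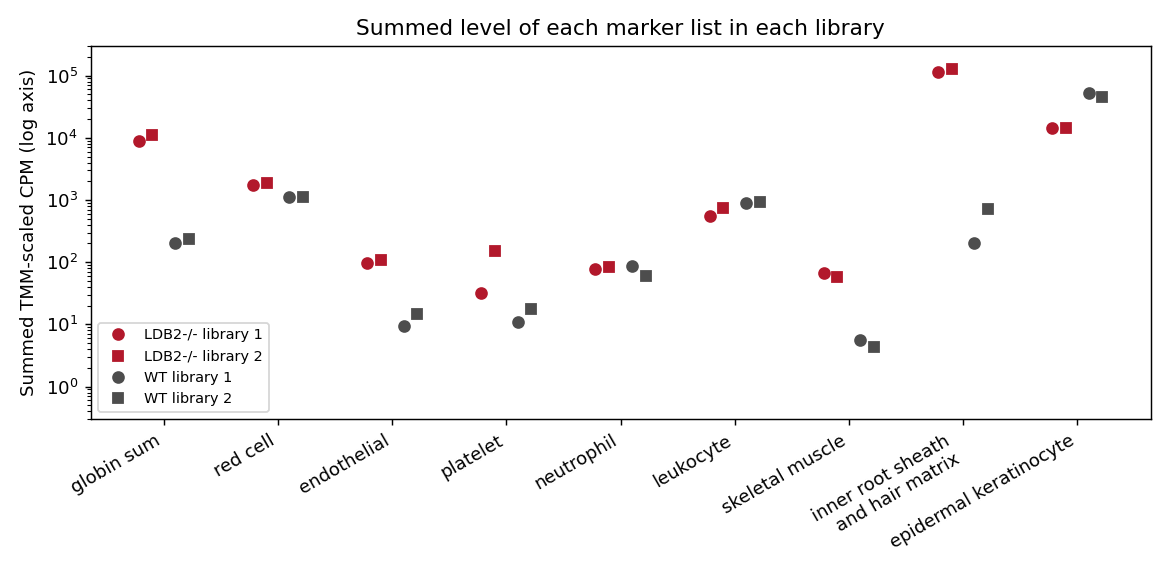
Summed TMM-scaled CPM on a log axis of all globin copies and of each marker list, with 1 point per library and LDB2-/- left of WT. Globin sums are 8854 and 11155 in LDB2-/- libraries, against at most 238 in WT libraries, while neutrophil sums overlap between the genotypes.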

How the data were processed

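RNA was measured in 4 libraries of mouse back skin, 2 LDB2-/- and 2 WT. Dispase, which frees epidermis from dermis, was applied to the skin, and Trizol RNA went into Illumina TruSeq libraries, per the labels' protocols. Strandedness is not given in the sources used here, so a gene and its antisense partner cannot be told apart. Tools named by the submitters' processing notes are HISAT2 2.1.0 (aligner), StringTie 1.3.4d (quantifier) and bcl2fastq 1.8.4, with the build mm10. The authors deposited counts per gene (not normalized), FPKM per the file headers, normalized log2 values, a signed fold change, which is used here as a score, and p-values, which were not used. Library totals were 54095522 and 68436842 counts in LDB2-/- libraries, against 67307536 and 57517162 in WT libraries, with 15468 to 16599 genes counted.

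The main test was edgeR's quasi-likelihood test (edgeR 4.0.16, R 4.3.3) on the counts, two-sided, with TMM factors of 0.920 and 0.872 in LDB2-/- libraries, against 1.105 and 1.128 in WT libraries. The filter asked for 1 FPKM in 2 libraries and left 12400 genes, over which p-values had Benjamini-Hochberg adjustment and a threshold of 0.05. The script was tested on simulated data. The standard error is that implied by the F statistic. Near-identical globin copies were summed, and members were described by the log2 ratio of mean TMM-scaled CPM, with no test. Shares have 95% Wilson intervals, a count of 0 allows up to 3 counts, and both cover counting error only. Alternatives were limma 3.58.1 on log2(FPKM + 1) and log2(FPKM + 0.1), DESeq2 1.42.0, other scalings and filters, a replicate block and leaving out each library.

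The 8 members and all gene lists were chosen with earlier results of these data known. Genes named are all members, the called genes of each list with the 6 largest changes, and tested haem synthesis and iron genes. Also named are list-defining genes at or near 0, and the 5 tested genes nearest in pattern to each chain sum, Alas2 and Slc4a1. Some genes that this rule selects are not reported here by name, although the counts over their lists include them. Slc4a1, Hbb-b1 and Hbb-b2 had no promoter in the sequence table used.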

Additional observations from a re-analysis of the deposited data

How the results depend on the processing

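The alpha globin sum, the beta globin sum, Alas2 and Slc4a1 stayed higher in LDB2-/- under every scaling tried, and single globin copies were not rescaled. The log2 fold changes of alpha globin, beta globin, Alas2 and Slc4a1, reported as 5.69, 5.38, 5.36 and 4.64, were 5.36, 5.05, 5.04 and 4.32 with library totals alone, and 5.36, 5.06, 5.03 and 4.32 in deposited FPKM. They were 3.50, 3.54, 3.23 and 1.47 in the authors' normalized log2 values, where Hbb-bs with 0 counts in WT library 2 is listed at 8.87. With each library left out in turn they were 5.48 to 5.88, 5.22 to 5.56, 5.25 to 5.48 and 4.23 to 5.23. In these fits the lone library of a genotype is assumed to vary like the other genotype's.

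Genes called higher numbered 2248 with library totals alone, and 2707 to 3264 with a library left out. Haem synthesis genes called higher, 3 as reported, were 1 with library totals alone and with limma at either pseudocount, and 1 to 4 with a library left out. Those called lower, 4 as reported, were 9 with library totals, 10 and 10 with limma, 7 at a mean FPKM of 5 or more, 2 with the replicate block and 3 with any library left out. Haem handling genes called lower were 7 and 7 with limma, against 4 as reported. Red cell genes called lower were 4 with no filter, against 2. Regulators called higher, 0 as reported, were 3 with DESeq2, 1 with no filter, 3 with crossed replicate numbers and 0 to 1 with a library left out. Regulators called lower, 4 as reported, were 7 with library totals and 7 and 7 with limma. The causes were not tested.

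Among the 81 named genes with a test, directions turned only for genes that were not called. Alas1 was -0.12 and Ldb1 -0.17 with library totals alone. With limma at pseudocounts of 0.1 and 1 Alas1 was -0.12 and -0.12, Ldb1 -0.14 and -0.14, and Lmo2 -0.0040 and -0.0024. With each library left out in turn, Uros ranged over -0.52 to 0.18, Fech -1.07 to 0.29, Blvrb -0.44 to 0.048, Cygb -0.46 to 0.0035 and Zfpm1 -0.16 to 0.038. The positive ends came without LDB2-/- library 2 for Uros and Fech, without WT library 1 for Blvrb and Cygb, and without LDB2-/- library 1 for Zfpm1, which was 0.00094 without WT library 2.

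Of these 81 genes, 68 were called, and 58 of these kept their call under every alternative that could be fitted. The exceptions were Urod, Glrx5, Iscu, Fam210b, Pcbp1, Fth1, Ireb2, Pf4, Gp1bb and Itga2b. The replicate numbers pair nothing in the labels, and same-numbered libraries deviated with a correlation of -0.198. With the replicate block 2916 genes were higher and 3176 lower, and with crossed numbers, chosen after seeing the data, 3678 and 3591. Groups of 2 are too small for the test of a library that stands apart, and depth limits Hbb-bt, Slc4a1 and the erythroid regulators, whose WT counts were 22 or fewer in sum for the first 2.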
